A study of Mus musculus with 12 samples.

Results

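Expression of 10 genes of the DNA methylation and TET pathway was followed in mouse acute myeloid leukemia (AML) cells: Dnmt1, Dnmt3a, Dnmt3b, Uhrf1, Tet1, Tet2, Tet3, Tdg, Idh1 and Idh2. They were chosen by name, and all 10 were found among the 15651 gene identifiers of the RNA-seq table. D/F AML cells carried Dnmt3afl/fl,Flt3ITD/ITD,Mx1Cre and T/F AML cells carried Tet2fl/fl,Flt3ITD/ITD,Mx1Cre, so that both genotypes shared the Flt3 internal tandem duplication and the Mx1-Cre transgene, and each carried floxed alleles of 1 member of the pathway. Cre was not induced, and floxed alleles were lost through its leaky activity, so a leukemia can have lost 1 or both of them. c-Kit+ cells from the spleens of moribund mice were cultured for 6 hours with DMSO or with CCS1477, an inhibitor of the bromodomain of the histone acetyltransferases p300 and CBP, in medium containing SCF, IL3 and IL6. The dose was 4 µM for D/F and 2 µM for T/F, so dose and genotype cannot be told apart. Each of the 4 groups held cells of 3 mice, and the DMSO and CCS1477 cells with the same number came from the same mouse, which gave 12 libraries from 6 mice. No cells with wild-type Dnmt3a, Tet2 and Flt3 were among the 12 libraries.

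DNA methyltransferases place a methyl group on cytosine, mostly where a C is followed by a G (CpG). DNMT1, guided to newly replicated DNA by UHRF1, copies the existing pattern, whereas DNMT3A and DNMT3B write methylation on unmethylated sites. TET dioxygenases oxidize methylcytosine with alpha-ketoglutarate as a cosubstrate, the glycosylase TDG cuts out the oxidized bases, and IDH1 and IDH2 make alpha-ketoglutarate from isocitrate. DNMT3A, TET2, IDH1 and IDH2 are among the genes most often mutated in AML and in clonal hematopoiesis.

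The 250 bases before the RefSeq start are shown for Dnmt3b, Tet2 and Tet3, the members that fell in the comparison over both genotypes, since RefSeq gives each of them a single start and CpG is the dinucleotide on which these enzymes act. The sequences are from RefSeq on GRCm38.p6, run 5′ to 3′ in the direction of the gene, and have every CpG in capitals. They lie at chr2:153649199-153649448 on the plus strand for Dnmt3b, chr3:133544391-133544640 on the minus strand for Tet2, and chr6:83441679-83441928 on the minus strand for Tet3.
Dnmt3b: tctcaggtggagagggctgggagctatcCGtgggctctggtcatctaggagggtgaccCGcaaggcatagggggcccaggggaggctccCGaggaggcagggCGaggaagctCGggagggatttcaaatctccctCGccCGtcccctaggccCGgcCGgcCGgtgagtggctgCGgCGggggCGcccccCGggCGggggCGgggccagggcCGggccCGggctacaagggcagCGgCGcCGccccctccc
Tet2: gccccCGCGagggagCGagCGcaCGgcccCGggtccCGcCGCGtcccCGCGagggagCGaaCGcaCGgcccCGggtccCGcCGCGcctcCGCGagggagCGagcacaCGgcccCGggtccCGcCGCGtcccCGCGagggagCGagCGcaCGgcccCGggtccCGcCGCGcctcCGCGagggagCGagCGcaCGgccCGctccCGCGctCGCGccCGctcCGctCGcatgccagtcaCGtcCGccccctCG
Tet3: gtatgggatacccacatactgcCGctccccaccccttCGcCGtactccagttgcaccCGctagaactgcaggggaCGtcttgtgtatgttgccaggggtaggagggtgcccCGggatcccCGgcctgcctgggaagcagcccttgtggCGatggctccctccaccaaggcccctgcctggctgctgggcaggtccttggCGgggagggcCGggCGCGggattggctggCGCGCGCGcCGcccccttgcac
The Dnmt3b window held 21 CpG, the Tet3 window 17 and the Tet2 window 51, against a median of 6 over the windows of 32851 RefSeq promoters; 99.9% of those had fewer CpG than the Tet2 window. All 10 members matched at least 1 RefSeq promoter, with 16 entries in all, and 15 of the 16 held more CpG than that median. Dnmt1 and Dnmt3a have 3 entries each and Uhrf1 and Idh1 2 each, and gene-level values do not tell their starts apart. The printed Tet2 and Tet3 windows lie inside the genes as GENCODE annotates them. On the minus strand these begin at position 133545139 of chromosome 3 and 83459084 of chromosome 6. Gene-level values do not tell the RefSeq start of either from one further upstream. The motifs searched, on both strands and with overlapping matches of 1 motif each counted, were the E-box CACGTG, the GC box GGGCGG, which contains a CpG, the CCAAT box CCAAT, the E2F sites TTTGGCGC and TTTCGCGC, and TATAAA. GC boxes were in 13 of the 16 entries and in 32.7% of all promoters. CCAAT boxes were in 8 entries and in 33.8% of all promoters. The E2F sites were in 2 entries, 1 of Dnmt1 and 1 of Uhrf1, and in 0.654% of all promoters. The E-box was in 2 entries, 1 of Dnmt3a and that of Tdg, and in 6.02% of all promoters, and TATAAA was in none of the 16 and in 12.4% of all promoters. In the windows printed above, Dnmt3b had 3 GC boxes, Tet2 1, and Tet3 1 GC box and 1 CCAAT box.

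Values are TPM, abundances scaled by transcript length to 1 fixed total for every library, so that a value is a share of the measured transcripts and levels can be compared between genes; the read depth of each library is not known from the table. In bulk RNA, fewer cells of a type and less RNA per cell cannot be told apart. All 8 markers of leukemic progenitors (Kit, Flt3, Cd34, Myb, Mpo, Elane, Prtn3 and Ctsg) were listed in the table; their summed level was 4031 to 10352 TPM in the 6 DMSO libraries and 882 to 4338 TPM in the 6 CCS1477 libraries, lower with CCS1477 in each mouse. The 6 mature neutrophil markers summed to 1626 to 9360 TPM over the 12 libraries. Of 7 T cell, 6 B cell, 6 erythroid, 5 macrophage, 4 mast cell and basophil and 5 megakaryocyte markers, 4, 3, 5, 4, 3 and 4 were measured here, and Cd3e, Cd3g, Trac, Cd79a, Ms4a1, Hba-a1, C1qa, Fcer1a and Gp1bb were among those not analysed here. Over the 12 libraries the T cell list summed to 17.5 to 48.1 TPM, the B cell list to 5.54 to 25.6, the erythroid list to 10.9 to 25.7, the macrophage list to 2.72 to 32.1, the mast cell and basophil list to 17.8 to 181.5, and the megakaryocyte list to 20.1 to 212.1. Macrophage markers were at 16.0 to 32.1 TPM in DMSO and 2.72 to 12.3 TPM in CCS1477. The macrophage, B cell, erythroid, mast cell and basophil, and megakaryocyte sums were each lower with CCS1477 in each mouse. The T cell sum was lower in every mouse but T/F replicate 3. The neutrophil sum was higher in D/F replicate 3 and T/F replicate 3 and lower in the other mice. D/F replicate 2 stood apart: of the 6 DMSO libraries its own had the lowest summed level of leukemic progenitor markers and the highest of megakaryocyte markers, and both of its libraries correlated least with their groups (mean r of 0.949 and 0.951, against 0.962 to 0.988 elsewhere). The part of any of these in the results was not tested, and the members' calls and the printed list counts that changed without D/F replicate 2 are given also without it.

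Ordered by mean TPM over the 12 libraries, Uhrf1 was highest at 197.3, followed by Idh2 at 152.6, Dnmt1 at 109.6, Tdg at 87.3, Idh1 at 67.8, Tet3 at 49.9, Dnmt3a at 45.6, Tet2 at 33.8 and Dnmt3b at 26.9, and Tet1 was lowest at 4.05. The ranges of neighbours in this order overlapped over the 12 libraries, apart from Dnmt3b and Tet1. Within libraries the order was steadier for some neighbours: Uhrf1 was above Idh2, and Dnmt1 above Tdg, in 12 of 12 libraries. Tet3 was above Dnmt3a in 6 of 12, and these were the 6 DMSO libraries. In the 6 CCS1477 libraries Dnmt3a was above Tet3. Among the TET genes, Tet3 and Tet2 thus gave nearly all of the TPM and Tet1 little of it.

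**Figure D1:**
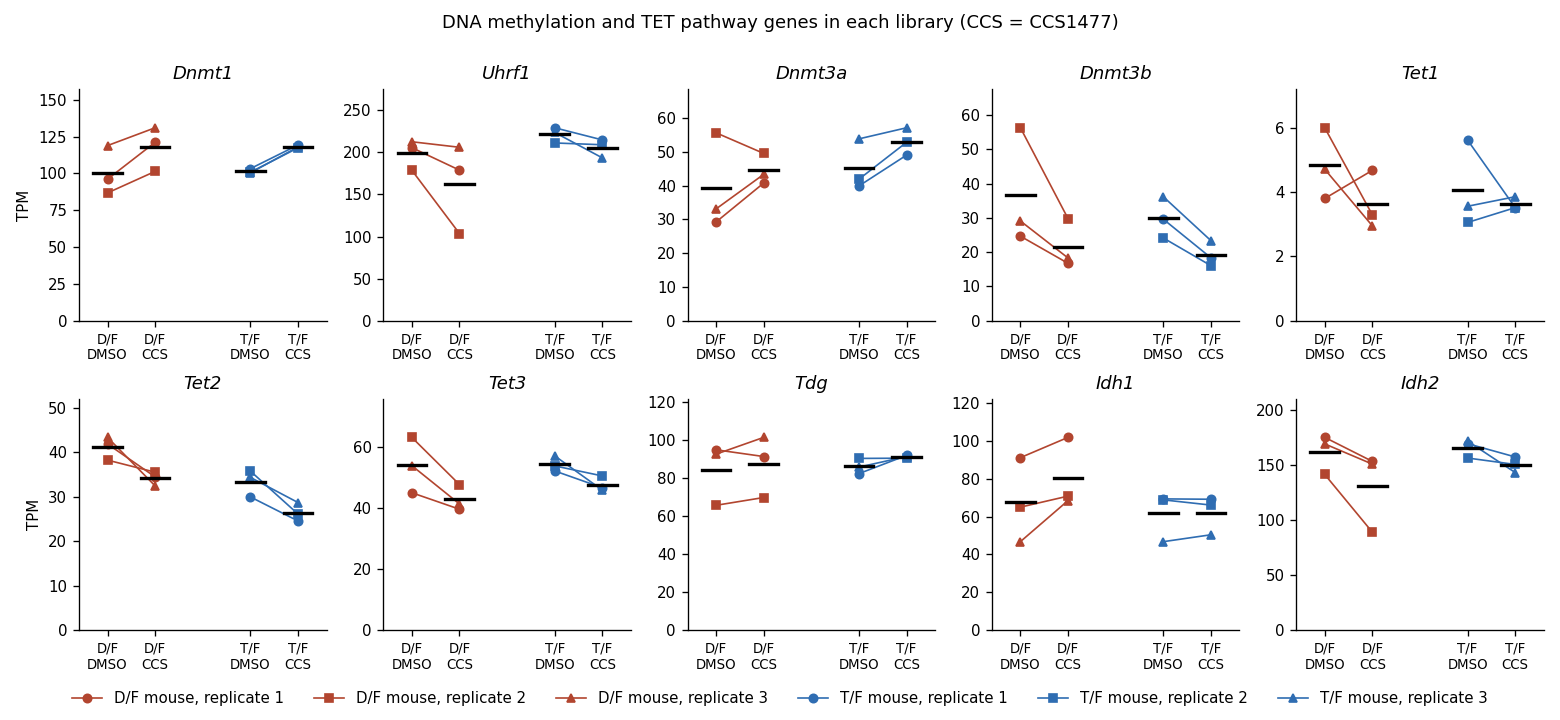
TPM (y axis, from 0) of the 10 genes in each of the 12 libraries, by genotype and treatment; lines join the DMSO and CCS1477 cells of 1 mouse and black bars are group means (n = 3). Dnmt3b, Tet2, Tet3, Uhrf1 and Idh2 were lower with CCS1477 in all 6 mice and Dnmt1 was higher in all 6.

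With CCS1477, Dnmt3b, Tet2 and Tet3 fell over both genotypes, and Dnmt1 rose in T/F AML cells. Changes were small, and no member passed the 2-fold limit together with the adjusted p in either genotype, where 7.28% of all genes tested in D/F and 7.33% in T/F did. In D/F, 0 of the 10 members passed an adjusted p of 0.05 (limma, Benjamini-Hochberg over 15501 genes). Of all genes, 5.14% were called higher and 6.51% lower. None of the members had an unadjusted limma p under 0.05 either, where 4712 of the 15501 genes did. With the mouse as a block, Dnmt3b was called lower in D/F, and 21.4% of all genes were then called higher and 18.0% lower. In T/F, Dnmt1 was called higher and Dnmt3b and Tet2 lower, against 25.8% of 15256 genes called higher and 17.6% called lower. Over both genotypes, Dnmt3b, Tet2 and Tet3 were called lower and no member higher, against 19.6% of 15583 genes lower and 25.8% higher. With the mouse as a block, Idh2 joined them and Dnmt1 was called higher, with 25.9% of all genes lower and 34.5% higher. Read against the shares of all genes called, the counts of called members do not set the 10 apart from other genes. Calls in T/F depended on each mouse: without replicate 1 or 2 no member was called, and without replicate 3 Dnmt3b alone. Fewer genes were called in the whole table too: 3473, 3192 and 5122 without replicate 1, 2 and 3, against 6620 with all. Over both genotypes, Tet2 alone was called without any 1 of the T/F mice, Tet2 and Dnmt1 without D/F replicate 3, and 6 members without D/F replicate 2. Of all genes, 5660, 5683 and 5775 were called without T/F replicate 1, 2 and 3. The count was 6050 without D/F replicate 3 and 8546 without D/F replicate 2, against 7061 with all mice. The 10 members had a median log2 change of -0.29 for D/F and of -0.10 for T/F, against 0.06 and 0.07 over all genes tested. Without D/F replicate 2 the members' D/F median was -0.13, and their T/F median was -0.044 to -0.17 when 1 mouse was left out and -0.0099 under quantile normalization.

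Within mice, 6 of the 10 members moved one way in all 6: Dnmt1 was higher, as were 31.8% of all genes tested, and Dnmt3b, Tet2, Tet3, Uhrf1 and Idh2 were lower, as were 24.2%.

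**Figure D2:**
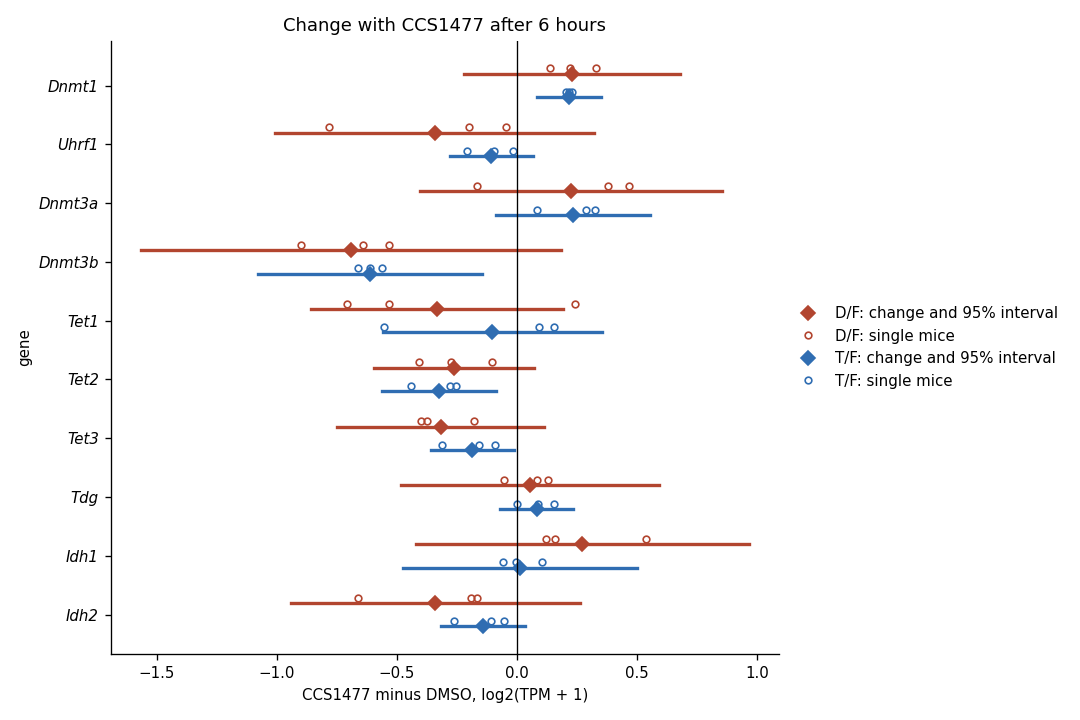
Difference in log2(TPM + 1) between CCS1477 and DMSO cells (x axis) for each gene (y axis) in D/F and T/F; diamonds and bars are limma estimates with 95% intervals (3 against 3, mouse not in the fit), and open circles are single mice. Dnmt3b shows the largest fitted decrease in both genotypes, and the intervals in D/F are wider than those in T/F.

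Of the maintenance machinery, Dnmt1 rose slightly and evenly. In T/F it was at 103.3, 100.9 and 100.4 TPM in DMSO and 119.4, 117.4 and 118.1 TPM in CCS1477. These groups did not overlap, and the log2 change was 0.22 ± 0.05 (SE, limma adjusted p = 0.0214), or 0.14 with an adjusted p of 0.211 after rescaling each library to 1 median. In D/F it was at 96.1, 86.8 and 119.0 TPM in DMSO and 121.2, 101.4 and 131.1 TPM in CCS1477, where the groups overlapped although each mouse went up. Its change there was 0.23 ± 0.19, with a limma adjusted p of 0.449. Over both genotypes Dnmt1 changed by 0.22 ± 0.09 (limma adjusted p = 0.0582), and by the same value with the mouse as a block (adjusted p = 0.0040).

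Uhrf1, which recruits DNMT1 to hemimethylated DNA, did not pass the test in either genotype. In D/F it was at 205.7, 178.9 and 212.7 TPM in DMSO and 179.0, 103.6 and 206.1 TPM in CCS1477, and replicate 2 had by far the largest drop. The Uhrf1 log2 change in D/F was -0.34 ± 0.28 (limma adjusted p = 0.448), and -0.12 without replicate 2. In T/F it was at 229.3, 211.3 and 223.8 TPM in DMSO and 214.9, 209.1 and 193.6 TPM in CCS1477. The groups overlapped in both genotypes, and the 95% interval of its log2 change over both genotypes was -0.54 to 0.10 (limma adjusted p = 0.240).

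Of the de novo methyltransferases, Dnmt3b had the largest change of the 10 members. In D/F it was at 24.6, 56.3 and 29.1 TPM in DMSO and 16.7, 29.8 and 18.3 TPM in CCS1477. In T/F it was at 29.6, 24.1 and 36.2 TPM in DMSO and 18.3, 16.0 and 23.3 TPM in CCS1477. Replicate 2 was the highest D/F library in both treatments, so the D/F groups overlapped, whereas the T/F groups did not. Within each mouse the CCS1477 value was 0.529 to 0.679 times the DMSO value. The log2 change was -0.69 ± 0.36 in D/F (limma adjusted p = 0.256) and -0.61 ± 0.19 in T/F (adjusted p = 0.0450). With the mouse as a block the D/F change had an adjusted p of 0.0153, and without replicate 2 it was -0.59 with an adjusted p of 0.0475, where 10.8% of all genes were called lower and 13.8% higher. Over both genotypes the change was -0.65 ± 0.21 (limma adjusted p = 0.0260). An antisense gene, Dnmt3bos, overlaps Dnmt3b and was at 0.244 to 3.62 TPM; whether strand was used in the quantification is not stated, so their reads may not be told apart.

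Dnmt3a, the floxed gene of D/F, did not pass the test between D/F and T/F, and its gene-level TPM does not show whether alleles were lost, since it sums 13 protein-coding transcripts whether or not they hold the deleted part. In D/F it was at 29.3, 55.7 and 33.1 TPM in DMSO and 40.8, 49.6 and 43.4 TPM in CCS1477. In T/F it was at 39.9, 41.9 and 53.9 TPM in DMSO and 49.1, 52.9 and 57.2 TPM in CCS1477. The D/F replicate 2 library was above all T/F libraries in DMSO, and it was the only one of the 6 mice in which Dnmt3a was lower with CCS1477. With CCS1477 the log2 changes were 0.23 ± 0.26 for D/F and 0.23 ± 0.13 for T/F (limma adjusted p = 0.606 and 0.200), and the exact sign-flip permutation test over the 6 mice, two-sided, gave p = 0.09375, where the smallest it can give is 0.03125. Without D/F replicate 2, Dnmt3a was called higher over both genotypes, by 0.31 (limma adjusted p = 0.0200), when 32.6% of all genes were called higher and 22.8% lower. T/F exceeded D/F in DMSO by 0.24 on the log2 scale, with a 95% interval of -0.40 to 0.89 (limma adjusted p = 0.953). Its antisense gene Dnmt3aos was at 1.06 to 4.05 TPM.

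The shares of the summed TPM of Dnmt1, Dnmt3a and Dnmt3b followed these changes. Dnmt3b gave 20.3% ± 7.0 of the sum in D/F DMSO, 11.8% ± 4.1 in D/F CCS1477, 16.9% ± 2.3 in T/F DMSO and 10.1% ± 1.6 in T/F CCS1477 (SD, n = 3). It was lower with CCS1477 in all 6 mice, with a mean difference of -7.65 percentage points (within-mouse SD 2.13, exact sign-flip p = 0.03125). The Dnmt1 share was higher in all 6 mice, by 5.33 percentage points (SD 3.82, exact p = 0.03125), and the Dnmt3a share in 5 of 6, by 2.31 (SD 1.90, exact p = 0.09375). The 3 shares sum to the whole, so they are not independent. The sum itself was 176.7 ± 24.7 TPM in D/F DMSO, 184.1 ± 7.6 in D/F CCS1477, 176.8 ± 12.3 in T/F DMSO and 190.6 ± 6.9 in T/F CCS1477, and was higher with CCS1477 in 5 of 6 mice (exact sign-flip p = 0.15625).

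**Figure D3:**
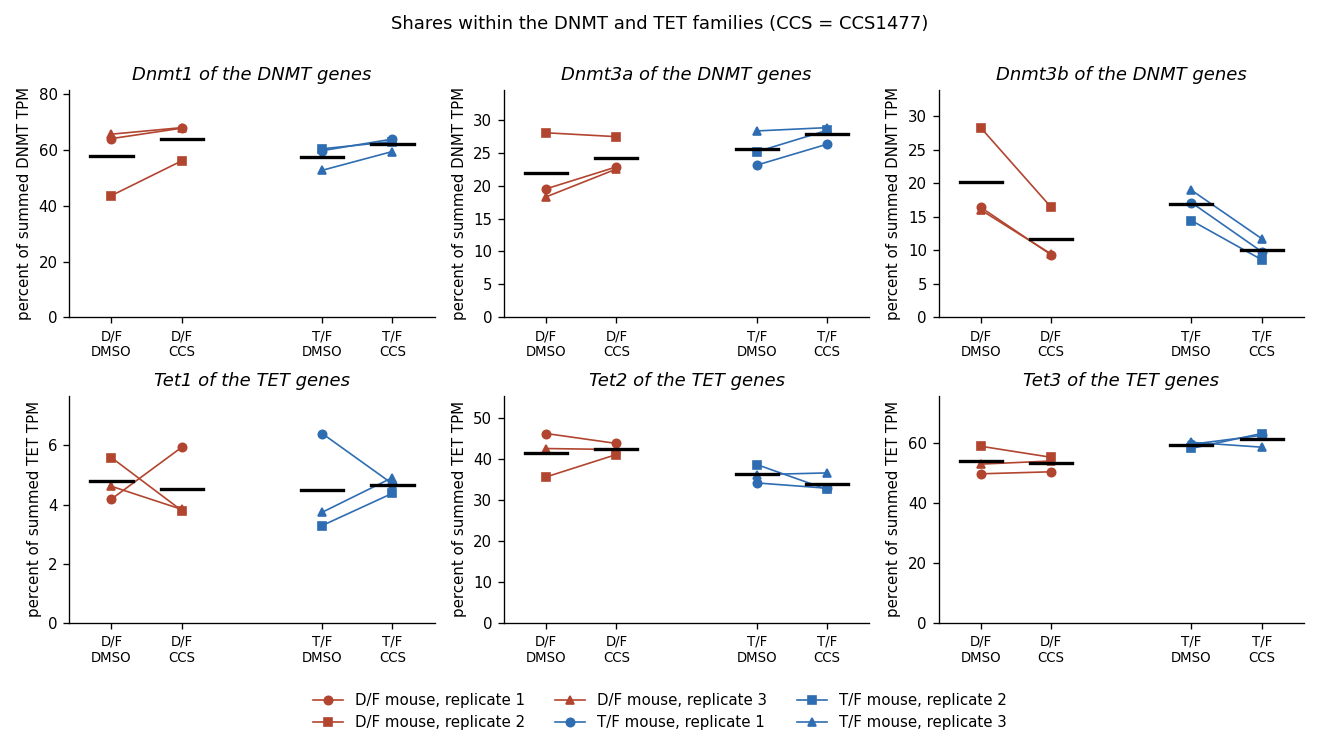
Percent of the summed TPM of the DNMT genes (top) and of the TET genes (bottom) that each gene gave in each library (y axis, from 0), by genotype and treatment; lines join the cells of 1 mouse and black bars are group means (n = 3). The Dnmt3b share fell in all 6 mice, and the Tet2 share with CCS1477 is lower in the 3 T/F libraries than in the 3 D/F libraries.

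Of the TET dioxygenases, Tet2 and Tet3 were both called lower over both genotypes. Tet2 was at 41.9, 38.3 and 43.4 TPM in D/F DMSO and at 34.5, 35.6 and 32.5 TPM in D/F CCS1477. It was at 30.0, 35.8 and 34.4 TPM in T/F DMSO and at 24.6, 26.1 and 28.7 TPM in T/F CCS1477. In neither genotype did the treated and untreated groups overlap, and the CCS1477 value was 0.730 to 0.929 times the DMSO value within mice. The log2 change was -0.26 ± 0.14 in D/F (limma adjusted p = 0.258) and -0.32 ± 0.10 in T/F (adjusted p = 0.0396), and over both genotypes -0.29 ± 0.07 (adjusted p = 0.0063).

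Tet2 is the floxed gene of T/F, and there it was lower than in D/F without passing the test. In DMSO the 3 T/F libraries lay below the 3 D/F libraries (33.4 ± 3.0 against 41.2 ± 2.6 TPM), with a log2 difference of -0.30 and a 95% interval of -0.60 to 0.005 (limma adjusted p = 0.803). In CCS1477 they again lay below (26.5 ± 2.1 against 34.2 ± 1.6 TPM), with a difference of -0.36, an interval of -0.62 to -0.09, an unadjusted limma p of 0.0155 and an adjusted p of 0.343. A comparison of 3 libraries with 3 cannot give an exact permutation p below 0.1, which is what both comparisons gave. The floxed exon of Tet2, exon 3, makes up 3206 of the 9179 bases of a GENCODE transcript of the gene, so a transcript without it would still be counted, and the gene-level value does not show how many alleles were lost.

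Tet3 was at 45.1, 63.3 and 54.0 TPM in D/F DMSO and at 39.7, 47.8 and 41.4 TPM in D/F CCS1477. In T/F it was at 52.3, 53.9 and 57.2 TPM in DMSO and at 46.8, 50.6 and 46.0 TPM in CCS1477. The groups overlapped in D/F and not in T/F. Its change was -0.32 ± 0.18 in D/F (limma adjusted p = 0.287), -0.19 ± 0.07 in T/F (adjusted p = 0.0809) and -0.25 ± 0.09 over both genotypes (adjusted p = 0.0396). B230319C09Rik, transcribed from the opposite strand across the RefSeq start of Tet3, was at 6.80 to 22.5 TPM.

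Tet1 was near the lower end of what was measured. It was at 3.81, 6.01 and 4.72 TPM in D/F DMSO and at 4.68, 3.30 and 2.95 TPM in D/F CCS1477, and at 5.63, 3.06 and 3.56 TPM in T/F DMSO and at 3.52, 3.52 and 3.86 TPM in T/F CCS1477. It was lower with CCS1477 in 3 mice and higher in 3, and the 95% interval of the log2 change over both genotypes was -0.53 to 0.10.

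The summed TPM of Tet1, Tet2 and Tet3 was 100.2 ± 8.5 in D/F DMSO, 80.8 ± 5.2 in D/F CCS1477, 92.0 ± 3.7 in T/F DMSO and 77.9 ± 2.8 in T/F CCS1477. It was lower with CCS1477 in all 6 mice, by 16.7 TPM on average (within-mouse SD 5.4, exact sign-flip p = 0.03125). The shares of Tet2 and Tet3 changed by less than the within-mouse spread: the Tet2 share differed by -0.68 percentage points with CCS1477 (SD 3.77, exact p = 0.59375) and the Tet3 share by 0.73 (SD 3.09, exact p = 0.59375). Between genotypes, the Tet2 share was 42.3% ± 1.4 in D/F CCS1477 and 34.0% ± 2.2 in T/F CCS1477, with no overlap and an exact permutation p of 0.1, the smallest possible. With DMSO the D/F share was 41.4% ± 5.4 and the T/F share 36.3% ± 2.2, where D/F replicate 2 at 35.6% lay within the T/F range (exact p = 0.3).

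Tdg, the glycosylase that acts on the products of the TET enzymes, stayed close to its DMSO level. It was at 94.9, 65.7 and 92.6 TPM in D/F DMSO, 91.3, 69.8 and 101.4 TPM in D/F CCS1477, 82.4, 90.3 and 85.8 TPM in T/F DMSO, and 91.9, 90.5 and 91.3 TPM in T/F CCS1477. In T/F the treated and untreated groups did not overlap, and the log2 change was 0.08 ± 0.06 (limma adjusted p = 0.323). The 95% interval of the Tdg log2 change over both genotypes was -0.18 to 0.31.

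Idh1, the cytosolic enzyme, varied more between mice than with CCS1477. It was at 91.1, 64.9 and 46.8 TPM in D/F DMSO and at 101.8, 70.8 and 68.4 TPM in D/F CCS1477, and at 69.3, 68.8 and 46.7 TPM in T/F DMSO and at 69.1, 66.0 and 50.4 TPM in T/F CCS1477. Log2 changes of 0.27 ± 0.29 for D/F and 0.01 ± 0.20 for T/F had limma adjusted p of 0.569 and 0.959. Idh2, the mitochondrial enzyme, was at 175.5, 141.7 and 169.5 TPM in D/F DMSO and at 153.6, 89.2 and 151.2 TPM in D/F CCS1477, and at 169.7, 156.7 and 172.1 TPM in T/F DMSO and at 157.7, 150.8 and 143.5 TPM in T/F CCS1477. It was lower in all 6 mice, most so in D/F replicate 2, and the change over both genotypes was -0.24 ± 0.13 (limma adjusted p = 0.161), with an adjusted p of 0.0423 with the mouse as a block. Without D/F replicate 2 the change was -0.16 with an adjusted p of 0.0276.

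Between genotypes, 0 of the 10 members passed an adjusted p of 0.05 in DMSO, against 0.0328% of 15265 genes tested, and 0 in CCS1477, against 0.0329% of 15199. At an unadjusted limma p under 0.05, 0 members passed in DMSO, beside 939 of the 15265 genes. In CCS1477 1 member, Tet2, passed, beside 1643 of the 15199 genes, so this count does not set Tet2 apart. No member was called for a difference in the response to CCS1477 between D/F and T/F (limma interaction, 0% of 15583 genes called). At an unadjusted p under 0.05 there were 0 members and 659 of the 15583 genes. That difference is loosely bounded: for Dnmt3b its 95% interval was -0.90 to 1.06 on the log2 scale, and for Tet2 -0.39 to 0.27.

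Dnmt3a and Tet2 were also compared with all 11604 genes of at least 5 TPM on average, by the root mean square difference of their centred log2(TPM + 1) over the 12 libraries. Zfp362, Mthfsl, Smap2, 3830406C13Rik and Camta2 were closest to Dnmt3a, at 0.08 to 0.11, where the median gene was at 0.36 and Dnmt3a itself varied by 0.28. Rnd1, Tob2, Gm13075, Xpnpep3 and Ctf2 were closest to Tet2, at 0.10 to 0.13, where the median gene was at 0.38 and Tet2 itself varied by 0.23. No other member was among either set of 5, and Tet1, at 4.05 TPM on average, was not compared.

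Some other genes of the pathway had larger changes than any of the 10 members; those named for T/F alone were named after their values were seen. The counts called in each list stand beside 5.14% of all genes higher and 6.51% lower in D/F, and beside 25.8% higher and 17.6% lower in T/F. In the fit with the mouse as a block these shares were 21.4% and 18.0% for D/F, against 31.2% and 22.9% for T/F. Of 11 partners and regulators of the methyltransferases, 3 fell and 0 rose in D/F, and 4 fell and 4 rose in T/F; with the mouse as a block 3 fell and 3 rose in D/F. Those that rose in T/F were Uhrf2, Zbtb24, Dmap1 and Setd2. The list had a median log2 change of 0.13 in D/F, 0.015 without D/F replicate 2, and of 0.08 in T/F. Without that mouse 3 fell and 1 rose in D/F, beside 10.8% and 13.8% of all genes. Without D/F replicate 1 or 3, no gene of the whole table was called in D/F (lowest limma adjusted p of 0.0771 and 0.172), so the D/F counts of these lists depend on both mice. Dnmt3l, a catalytically inactive cofactor of DNMT3A and DNMT3B, was at 11.2, 7.70 and 9.74 TPM in D/F DMSO and 1.10, 0.046 and 0.753 TPM in D/F CCS1477, and at 6.75, 11.1 and 7.46 TPM in T/F DMSO and 0.838, 1.11 and 0.534 TPM in T/F CCS1477. These groups were far apart, and Dnmt3l fell, with log2 changes of -2.74 for D/F (limma adjusted p = 0.00709) and -2.35 for T/F (adjusted p = 0.000791). Cdca7, an activator of the remodeler HELLS, fell in both genotypes: D/F had 160.3 ± 19.0 TPM with DMSO and 54.6 ± 13.4 with CCS1477, and T/F had 147.5 ± 15.5 and 62.2 ± 2.6 (log2 changes of -1.56 and -1.23, limma adjusted p = 0.0113 and 0.000624). Its paralog Cdca7l fell by 1.16 and by 0.88 on the log2 scale (limma adjusted p = 0.0146 and 0.00286). Hells itself was at 114.5 to 134.5 TPM in D/F DMSO and 77.0 to 122.5 TPM in D/F CCS1477, and fell in T/F by 0.30 (limma adjusted p = 0.0152).

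Of 10 methyl-CpG binding proteins, which read the mark, 0 were called in D/F and 6 rose and 0 fell in T/F, among them Mbd2, Mbd4, Mbd5, Mbd6 and Zbtb33, with medians of 0.21 and 0.32. With the mouse as a block, 1, Mbd4, rose in D/F, and without D/F replicate 2 also 1 of the list rose there. Of 14 measured genes of the base excision repair that follows TET and TDG, 2 fell and 0 rose in D/F, and 5 fell and 4 rose in T/F, with medians of 0.08 and -0.11. In T/F the glycosylases Neil1 and Neil3, the polymerase Polb and the ligase Lig1 rose, and the glycosylases Ung and Nthl1 and the strand break sensor Parp1 were among those that fell; with the mouse as a block 2 fell and 3 rose in D/F, and 6 fell and 5 rose in T/F. Apex1, the endonuclease that cuts abasic sites, was at 113.5, 116.8 and 145.2 TPM in D/F DMSO and 39.4, 28.9 and 51.1 TPM in D/F CCS1477, and at 146.7, 137.4 and 141.7 TPM in T/F DMSO and 45.9, 48.5 and 47.1 TPM in T/F CCS1477. The groups did not overlap, and Apex1 fell by 1.66 on the log2 scale in D/F and by 1.57 in T/F (limma adjusted p = 0.0127 and 0.000242). Lig3, a ligase that seals the repaired strand, fell by 0.86 and by 0.56 (limma adjusted p = 0.0225 and 0.00474).

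Of 4 measured TET cofactors and regulators, 0 were called in D/F and 1, Ogt, rose in T/F; with the mouse as a block Ogt and Wt1 rose in D/F and Ogt and Cxxc5 in T/F. Of 20 other enzymes of alpha-ketoglutarate and 2-hydroxyglutarate, 0 were called in D/F, and 6 fell and 3 rose in T/F, with medians of -0.08 and -0.10; with the mouse as a block 4 fell and 3 rose in D/F and 7 fell and 3 rose in T/F, and without D/F replicate 2 it was 2 and 1 in D/F. In T/F, Idh3a, Got1, Psat1, Bcat1 and Bcat2 were among those that fell, and Ogdh, Sdha and the 2-hydroxyglutarate dehydrogenase D2hgdh rose. Bcat1, a branched-chain aminotransferase that consumes alpha-ketoglutarate, had the largest change of these. It was at 33.1, 5.63 and 38.7 TPM in D/F DMSO, where replicate 2 was far lower, and 3.89, 0.437 and 8.65 TPM in D/F CCS1477, and it fell in T/F from 24.2 ± 1.4 to 3.95 ± 0.14 TPM (log2 change -2.35, limma adjusted p = 0.000242).

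Of 9 measured genes of the S-adenosylmethionine cycle, which supplies the methyl group, 1 fell in D/F and 2, Mat2a and Mtrr, fell in T/F, with list medians of 0.04 and -0.09. With the mouse as a block, both fell in D/F as well. Mat2a, which makes S-adenosylmethionine, was at 212.1, 325.3 and 282.5 TPM in D/F DMSO and 100.1, 157.2 and 131.1 TPM in D/F CCS1477, and at 263.5, 233.4 and 296.7 TPM in T/F DMSO and 123.4, 114.9 and 128.1 TPM in T/F CCS1477. Treated and untreated libraries did not overlap, and the log2 changes for D/F and T/F were -1.07 and -1.10 (limma adjusted p = 0.0389 and 0.000979).

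Dnmt1 and Uhrf1 are expressed in cycling cells, and 24 S phase genes were counted beside them: 1 rose and 0 fell in D/F, and 8 rose and 3 fell in T/F, with medians of -0.09 and -0.04. Without D/F replicate 2 the D/F median was 0.038, with 3 called higher and 0 lower. With the mouse as a block, 1 rose and 1 fell in D/F, and 8 rose and 5 fell in T/F. Slbp, the histone mRNA binding protein, was the 1 called in both genotypes (log2 changes of 0.89 and 0.67, limma adjusted p = 0.0408 and 0.00169). Over both genotypes, 4 rose and 4 fell of the methyltransferase partners, and 4 and 0 of the methyl-CpG binding proteins and their relatives. Of the repair genes 3 rose and 5 fell, and of the TET cofactors 0 and 0. Of the alpha-ketoglutarate enzymes 4 rose and 4 fell, and of the S phase genes 4 and 1. These stand beside 25.8% of all genes higher and 19.6% lower. In the blocked fit these counts were 5 and 4, 5 and 1, 4 and 5, 2 and 0, 5 and 10, and 6 and 5, in the same order of lists, beside 34.5% and 25.9% of all genes. Without D/F replicate 2 they were 5 and 4, 6 and 1, 3 and 5, 1 and 0, 6 and 7, and 8 and 7, beside 32.6% and 22.8%. No gene of these lists was called between genotypes or for a difference in response. The part of the cell cycle in the change of any member was not tested.

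**Figure D4:**
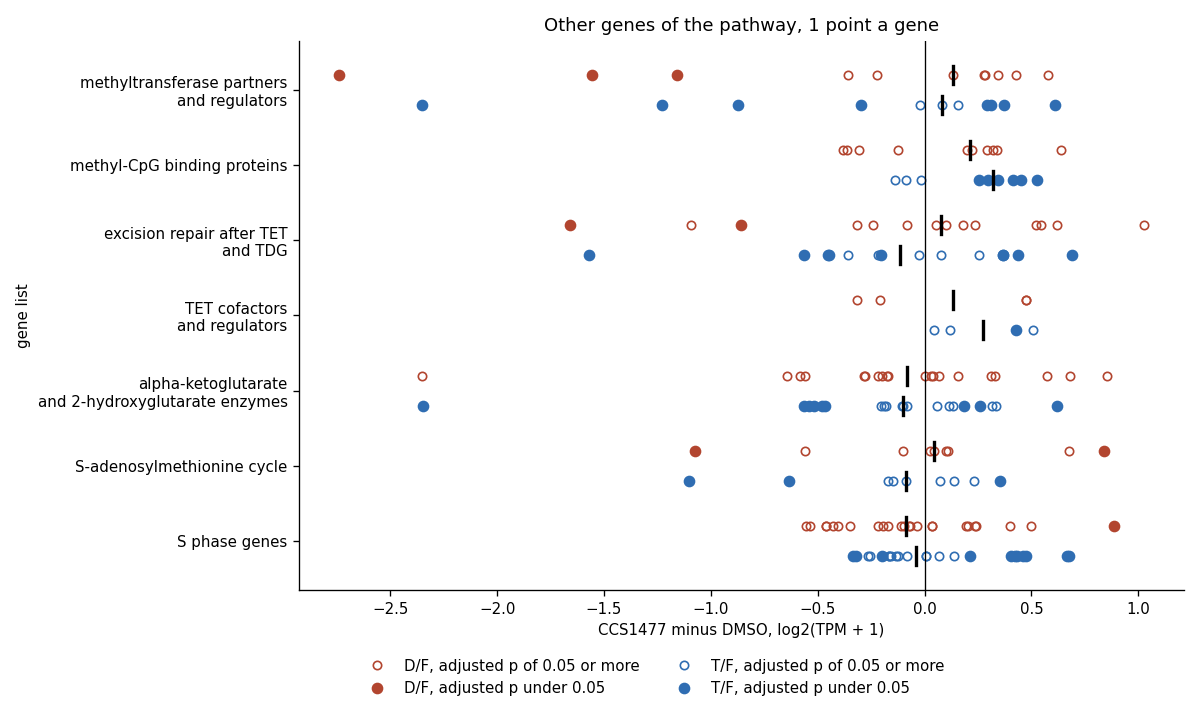
Difference in log2(TPM + 1) between CCS1477 and DMSO cells (x axis) for the other genes of the pathway by list (y axis), 1 point a gene, in D/F and T/F; filled points passed an adjusted p of 0.05 (limma) and black bars are list medians. Dnmt3l, Cdca7, Apex1 and Mat2a are the filled points below -1 in both genotypes.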

How the data were processed

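RNA-seq was made from 12 libraries, 3 mice for each genotype and treatment. Per the labels the libraries were prepared with an mRNA kit after ribosomal depletion. The authors quantified transcripts with kallisto and deposited gene-level TPM; the index and its annotation are not given in the sources used here. The table holds genes whose highest value was at least 2.00 TPM. Because TPM keeps no read counts, the depth and the precision it gives are unknown, and no spike-in sets the scale.

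Values were tested as log2(TPM + 1), a scale that understates the change of low genes, with limma 3.58.1 in R 4.3.3 (lmFit and eBayes, no trend, two-sided, Benjamini-Hochberg over all genes tested), on genes that averaged 1 TPM or more in any group compared. The fit was checked on simulated data. Calls were made at an adjusted p under 0.05. The study's stated analysis does not pair mice, so the main fit does not. The labels give the same mouse number to both treatments, and deviations from group means correlated at 0.354 to 0.669 within a mouse and at no more than 0.141 between mice. The fit with the mouse as a block is given beside the members' calls and the printed list counts that it changed. Single genes and shares were tested with exact permutation tests. Alternatives were another pseudocount, other filters, median rescaling, quantile normalization, an eBayes trend, 1 fit of 4 groups, leaving out each mouse, and a 2-fold limit; leaving out each mouse from the count within mice was added after seeing the data.

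Genes named were all 10 members, list genes called in the same direction in both genotypes (at most 4 a list, by the smaller change), and the 5 genes nearest in pattern to Dnmt3a and to Tet2. The members and lists were chosen with earlier results of these data known. Promoters and motifs were read from RefSeq windows of 250 bases on GRCm38.p6, and overlapping genes from GENCODE. Values of some genes of the lists are not reported here.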

Additional observations from a re-analysis of the deposited data

How the results depend on the processing

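The number of members called in D/F moved from 0 to 1 with the replicate block, and was 0 to 1 when 1 mouse was left out. In T/F it was 3 in the reported fit, 1 in 1 fit of 4 groups and 0 with the 2-fold limit. It was 0 to 1 when 1 mouse was left out, which leaves 2 libraries against 2. With a pseudocount of 0.1, 1 member was called higher and 1 lower in T/F. The eBayes trend gave 1 higher and 3 lower there, and median rescaling 0 and 3. Tet3 was called in T/F in 2 of 11 alternatives. Over both genotypes the number called was 3, then 5 with the replicate block, 0 with the 2-fold limit and 1 to 6 when 1 mouse was left out. A filter at 5 TPM, quantile normalization and the eBayes trend each gave 1 higher and 3 lower over both genotypes. The replicate block changed no other call of a member. The number of genes called in D/F was 1805 without the block and 6098 with it, and 0 to 3739 when 1 mouse was left out. With 1 mouse left out, 3192 to 5122 genes were called in T/F, against 6620 with all mice. Over both genotypes 5660 to 8546 genes were called, against 7061. The directions of change of Dnmt1, Dnmt3b, Tet2 and Tet3 with CCS1477 were the same under all alternatives run.

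Directions that turned were of values that had not passed the test. In T/F, Uhrf1 changed by 0.030 under quantile normalization and Idh1 by -0.066 under median rescaling; with 1 mouse left out Tet1 ranged from -0.23 to 0.12 and Idh1 from -0.031 to 0.051. Between genotypes in DMSO, with 1 mouse left out, Dnmt1 ranged from -0.074 to 0.15, Dnmt3b from -0.44 to 0.14, Tet3 from -0.10 to 0.14, Idh1 from -0.34 to 0.14, Idh2 from -0.055 to 0.098 and Tdg from -0.12 to 0.14. In CCS1477, Dnmt1 was at -0.043 under quantile normalization and ranged from -0.091 to 0.092, Dnmt3b from -0.28 to 0.11, Tet1 from -0.093 to 0.17, Idh2 from -0.017 to 0.37 and Tdg from -0.076 to 0.19. The difference of the response was -0.029 for Dnmt3a under median rescaling and -0.0016 under quantile normalization, and -0.0065 and -0.0079 for Tdg; with 1 mouse left out it ranged from -0.058 to 0.038 for Dnmt1, -0.19 to 0.13 for Dnmt3a, -0.024 to 0.16 for Dnmt3b, -0.13 to 0.018 for Tet2 and -0.025 to 0.070 for Tdg. The change in share with CCS1477 ranged from -0.40 to 0.31 percentage points for Tet1, -1.91 to 0.39 for Tet2 and -0.12 to 1.60 for Tet3. The count of members moving one way in all mice was 6 to 7. The causes were not tested.

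With 3 mice a group and an unknown depth, a change that did not pass the test was not shown to be absent. Where a 95% interval is given for such a change, sizes of change within it were not excluded. Values are relative to the total RNA measured.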
